A study of Mus musculus with 16 samples.

Results

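Integrins are the receptors by which cells hold on to the extracellular matrix, and 10 of their subunit genes were followed here in fibrotic mouse liver: the alpha chains Itga1, Itga5, Itga6, Itga8, Itga9 and Itgav, and the beta chains Itgb1, Itgb5, Itgb6 and Itgb8. They were chosen by name, as subunits of receptors for collagen, fibronectin, laminin or latent TGF-beta, with earlier results of these data known. All 10 were listed among 13715 genes in the table of livers taken after 8 weeks of injury, and 8 of the 10, without Itgb6 and Itgb8, among 12922 genes in the table of livers taken after recovery. RNA was sequenced from frozen whole liver of 16 mice in 4 groups of 4. Wild-type (Mfap2+/+) and knockout (Mfap2-/-) mice received carbon tetrachloride (CCl4), a hepatotoxin that causes fibrosis, by intraperitoneal injection for 8 weeks. Further mice of both genotypes were left without CCl4 for 4 weeks after the same 8 weeks, a stage called reversal here. Mfap2 encodes microfibril-associated glycoprotein 1, a small protein of the microfibrils that also carry latent TGF-beta. Every group therefore had CCl4, and mice without it were not analysed here. The sources used here do not give the knockout allele or the strain, age and sex of the mice. The labels number separate mice within each group.

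An integrin is a pair of 1 alpha and 1 beta chain, and the pair decides which matrix protein is bound. The beta chain of Itgb1 serves most alpha chains of this set, while the alpha chain of Itgav pairs with the beta chains of Itgb1, Itgb5, Itgb6 and Itgb8. Ligand binding links the matrix to the actin cytoskeleton, and integrins containing the Itgav chain can release active TGF-beta, the main fibrogenic cytokine of liver, from its latent complex. In injured liver, hepatic stellate cells become matrix-producing myofibroblasts that use these receptors, and endothelial cells, macrophages and bile duct cells carry their own sets.

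Values are FPKM, fragments scaled to the length of the transcript and to the mapped fragments of the library, so levels can be compared between genes within a table. The 10 genes lie on mm10 as follows, with 4 of them on chromosome 2. Itga1 spans chr13:114953096-115101964 on the minus strand and Itga5 chr15:103344286-103366763 on the minus strand. Itga9 spans chr9:118606690-118901003 on the plus strand, Itgb1 chr8:128685654-128733200 on the plus strand, Itgb5 chr16:33829665-33949338 on the plus strand and Itgb8 chr12:119158022-119238802 on the minus strand. On chromosome 2 lie Itga6 (chr2:71745616-71858416, plus), Itga8 (chr2:12106632-12301922, minus), Itgav (chr2:83724397-83806916, plus) and Itgb6 (chr2:60598292-60722643, minus). In the GENCODE annotation Itga1 overlaps Pelo, which is also listed, and Itga9 overlaps Gm10157 on the opposite strand, which is listed too. Of unlisted genes, Itga6 overlaps 4, with 2 on the opposite strand, Itga8 overlaps 2, with 1 opposite, and Itgav overlaps 2, with 2 opposite. Itga5 overlaps 1 gene, on its own strand, and Itgb1, Itgb5, Itgb6 and Itgb8 overlap none. The sources used here do not give the strand setting of the quantification, so reads of overlapping genes cannot be told apart.

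The promoters of 3 members are shown because the results turn on these genes: Itga9 had the smallest p of the set at 8 weeks, Itga5 had an unadjusted p under 0.05 at both stages, and Itgb1 encodes the shared partner chain. Each is the RefSeq sequence of build GRCm38.p6, 300 bases from 250 before to 50 after the annotated start, 5′ to 3′ on the strand of the gene. Itga9 is chr9:118711442-118711741 (plus; this RefSeq start lies inside the GENCODE gene span), Itga5 is chr15:103366742-103367041 (minus) and Itgb1 is chr8:128685404-128685703 (plus). Capitals mark matches, on either strand, to the AP-1 motif TGANTCA, the SMAD box GTCTG, the GC box GGGCGG, the TEAD motif GGAATG or the CArG box.
Itga9: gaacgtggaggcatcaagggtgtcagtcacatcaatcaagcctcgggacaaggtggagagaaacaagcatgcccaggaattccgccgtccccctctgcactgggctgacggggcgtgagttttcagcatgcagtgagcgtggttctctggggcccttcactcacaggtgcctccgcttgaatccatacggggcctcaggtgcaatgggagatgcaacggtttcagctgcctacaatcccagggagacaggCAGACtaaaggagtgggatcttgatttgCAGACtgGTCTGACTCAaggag
Itga5: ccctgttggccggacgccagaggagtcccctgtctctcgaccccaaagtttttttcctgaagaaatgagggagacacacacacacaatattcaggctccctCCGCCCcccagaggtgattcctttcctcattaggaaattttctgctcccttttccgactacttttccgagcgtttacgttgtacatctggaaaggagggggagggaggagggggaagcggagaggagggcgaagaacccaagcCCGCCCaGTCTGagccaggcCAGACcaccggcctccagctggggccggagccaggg
Itgb1: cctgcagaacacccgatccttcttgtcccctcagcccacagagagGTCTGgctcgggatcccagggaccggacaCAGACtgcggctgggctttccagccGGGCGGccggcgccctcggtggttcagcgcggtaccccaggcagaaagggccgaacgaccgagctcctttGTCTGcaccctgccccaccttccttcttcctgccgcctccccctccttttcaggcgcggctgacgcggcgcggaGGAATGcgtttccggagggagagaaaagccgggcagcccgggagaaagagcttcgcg
The Itga9 window held 1 AP-1 match, which overlaps a SMAD box match, 3 SMAD box matches in all and no GC box. The Itga5 window held 2 SMAD box and 2 GC box matches, and the Itgb1 window 3 SMAD box, 1 GC box and 1 TEAD match. Entries were found for 9 of the 10 members, Itga6 being the other, and gave 10 windows, since Itgb6 has 2. Of these 10 windows, 1 held an AP-1 match, 6 a SMAD box, 4 a GC box, 1 a TEAD match and 1 a CArG box. Among all 32851 mouse promoter windows the shares were 7.81%, 49.6%, 35.7%, 14.7% and 1.63%. A match is only a run of letters. GC content was 56.7% for Itga9, 58.7% for Itga5 and 67.3% for Itgb1, against a median of 52.7% over all windows.

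The libraries were checked before the members were compared. Mfap2 was 0.902, 0.972, 1.40 and 3.07 FPKM in the 4 wild-type mice at 8 weeks and 0.17, 0.21, 0.44 and 0.47 FPKM in those of reversal, and it is listed at 0 in all 8 knockout mice. Groups did not overlap at either stage (exact permutation test of the difference in means, 2-sided, p = 0.0286 at each, the smallest that 4 against 4 can give). Hepatocyte transcripts dominated as in liver: 13 of 14 hepatocyte markers were listed, and Alb (albumin) was 28626 to 46316 FPKM in wild-type and 16973 to 28240 FPKM in knockout mice at 8 weeks. Wild-type mice 1 and 2 stood apart from the other 6 libraries at 8 weeks, with scores of -45.7 and -49.4 on the first principal component against -10.4 to 38.0. At reversal wild-type mouse 1 and knockout mice 2 and 3 stood apart, with -35.3, -17.3 and -36.3 against 15.2 to 20.03. Those 3 had 38.1%, 32.4% and 37.5% of their FPKM in mitochondrial genes, against 23.5% to 29.8% in the other 5. Some member results that rest on these libraries are also given without them. Marker sums and most genes of other lists are given with all libraries only.

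At 8 weeks the mean of all 10 subunits was higher in the knockout, from 1.07-fold for Itgb6 to 2.34-fold for Itgb8, both of them near 0. The Itgb6 fold rests on wild-type mouse 4 and was 5.82 without it. Of the 8 genes abundant enough to be tested (mean of at least 0.5 FPKM), Itga9, Itga6, Itgav, Itga5, Itga1 and Itga8 had 1.502 to 2.02 times the wild-type mean, and Itgb5 and Itgb1 1.32 and 1.27 times. None of the 8 passed the test across all genes (limma on log2(FPKM + 1), Benjamini-Hochberg adjusted p under 0.05), where 0.00838% of 11928 genes passed. At an unadjusted p under 0.05, 4 of 8 members were higher and 0 lower, against 12.8% of all genes higher and 1.62% lower. That count was 2 of 8 with median-ratio scaling and 2 of 8 with quantile normalization. Over all genes in either direction, 1722 of 11928 had that p as deposited. With the 2 scalings 1264 of 11891 and 1232 of 11940 did. Of these genes 88.8% were higher as deposited, against 52.5% and 57.3% with the scalings. Without wild-type mouse 1 or knockout mouse 3 the member count was 1, with 988 and 951 of 11928 genes at that p. Without wild-type mouse 4 or knockout mouse 2 the member count was 6, with 3844 and 2005 genes. Without wild-type mice 1 and 2 together the member count was 1, with 652 genes. The median member differed by 0.46 on the log2(FPKM + 1) scale and the median gene by 0.23, since 82.6% of all genes were higher in the knockout by sign. With median-ratio scaling, which sets the median gene at -0.02, and with quantile normalization, which sets it at -0.003, 8 of 8 members still had the higher mean, with member medians of 0.25 and 0.30.

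At reversal the log2 difference of 7 of the 8 tested subunits was below its 8-week value, as it was for 69.2% of all genes, and none of these changes passed the test given further on. The count was 7 of 8 with quantile normalization, 5 of 8 with median-ratio scaling and 4 of 8 without the 5 mice that stood apart. In these settings 51.0%, 44.9% and 43.6% of all genes were lower. Adding 1 before the log shrinks differences of low genes, and most members had lower FPKM in the reversal livers. With 0.1 in place of 1 the count was 7 of 8, beside 67.3% of all genes. The fold of Itga5, counted among the 7, was 1.62 at 8 weeks and 1.61 at reversal. The mean of all 8 listed members was again higher in the knockout, from 1.04-fold for Itgav to 2.28-fold for Itga6, but 5 of 8 were with median-ratio scaling, and 5 of 8 with quantile normalization. None passed the test, where 0.00% of 11032 genes passed. An unadjusted p under 0.05 was found for 2 members, Itga6 and Itga5, both higher, against 6.95% of all genes higher and 1.50% lower. Of all genes at that p 82.2% were higher as deposited, 53.4% with median-ratio scaling and 52.0% with quantile normalization. The median member differed by 0.14 and the median gene by 0.10, with 70.7% of all genes higher by sign.

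**Figure D1:**
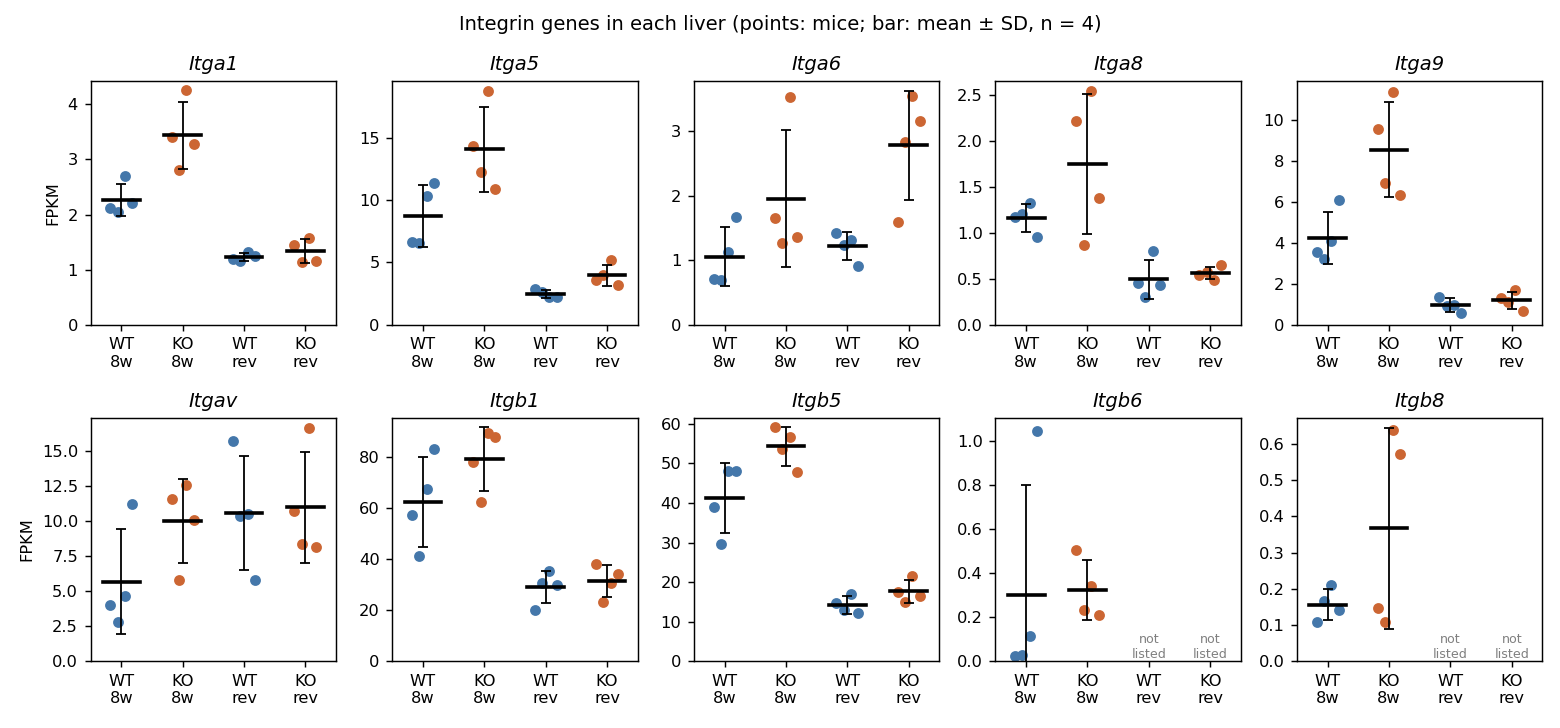
FPKM of the 10 integrin subunits (linear y axes, 1 panel a gene) in wild-type and knockout mice at 8 weeks of CCl4 and at reversal ("rev"); points are mice and bars the mean ± SD of 4. At 8 weeks the knockout points of Itga1 and Itga9 lie above all wild-type points, and at reversal those of Itga5 and Itga6; Itgb6 and Itgb8 have 8-week values alone.

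Itgb1, the beta chain shared by the collagen, fibronectin and laminin receptors, was the most abundant member in every group. Its FPKM at 8 weeks were 57.4, 41.3, 67.3 and 83.1 in wild-type mice 1 to 4 and 77.9, 62.2, 89.2 and 87.9 in knockout mice 1 to 4. The groups overlapped, wild-type mouse 2 being lowest and knockout mouse 3 highest. The means were 62.3 ± 17.5 and 79.3 ± 12.5 FPKM (SD, n = 4 each), a difference of 0.37 ± 0.24 (SE) on the log2(FPKM + 1) scale with a 95% interval of -0.14 to 0.88 (limma, adjusted p = 0.468). Without wild-type mice 1 and 2 that difference was 0.07. At reversal Itgb1 was 20.23, 30.59, 35.48 and 30.04 FPKM in wild-type and 37.98, 23.34, 30.65 and 34.16 FPKM in knockout mice. Values were interleaved, and the log2 difference of 0.12 ± 0.21 (limma, adjusted p = 0.924) became -0.023 after median-ratio scaling.

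Itga5 encodes the alpha chain of the classical fibronectin receptor and was the most abundant alpha chain at 8 weeks. It was 6.62, 6.54, 10.3 and 11.4 FPKM in wild-type and 14.4, 12.3, 18.7 and 10.9 FPKM in knockout mice at that stage. Of the knockout mice, mouse 4 alone lay within the wild-type range. The means were 8.72 ± 2.51 and 14.1 ± 3.42 FPKM (SD, n = 4), 1.62-fold, with a log2 difference of 0.64 ± 0.24 (limma, adjusted p = 0.239). At reversal Itga5 was 2.90, 2.61, 2.19 and 2.20 FPKM in wild-type and 3.60, 3.99, 5.16 and 3.19 FPKM in knockout mice. These groups did not overlap, as was so, with the knockout above, for 3.62% of all genes tested at reversal (0.988% had the knockout below). The means were 2.48 ± 0.344 and 3.99 ± 0.849 FPKM (SD, n = 4), 1.61-fold, and the log2 difference was 0.51 ± 0.16 with a 95% interval of 0.16 to 0.86 (limma, adjusted p = 0.512). It was 0.32 at 8 weeks without wild-type mice 1 and 2, and 0.40 at reversal without wild-type mouse 1 and knockout mice 2 and 3.

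Itga6, the alpha chain of laminin receptors on epithelial and endothelial cells, showed the largest fold of the 8 members at reversal. Its values there were 1.43, 1.24, 1.31 and 0.91 FPKM in wild-type and 1.59, 2.84, 3.54 and 3.16 FPKM in knockout mice. The groups did not overlap, although knockout mouse 1 was close to wild-type mouse 1. The means were 1.22 ± 0.223 and 2.78 ± 0.845 FPKM (SD, n = 4), 2.28-fold, with a log2 difference of 0.74 ± 0.19 and a 95% interval of 0.33 to 1.16 (limma, adjusted p = 0.499). Without wild-type mouse 1 and knockout mice 2 and 3 it was 0.61. At 8 weeks Itga6 was 0.712, 0.699, 1.13 and 1.67 FPKM in wild-type and 1.66, 1.27, 3.53 and 1.36 FPKM in knockout mice. Knockout mouse 3 stood high and the others overlapped with wild type, with a log2 difference of 0.49 ± 0.24 (limma, adjusted p = 0.365).

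Itga9, the alpha chain of a receptor for tenascin-C and osteopontin, had the largest difference of the tested members at 8 weeks. It was 3.54, 3.21, 4.08 and 6.07 FPKM in wild-type and 9.56, 6.93, 11.3 and 6.34 FPKM in knockout mice. The groups did not overlap, as was so, with the knockout above, for 6.29% of all genes tested at 8 weeks (0.612% had the knockout below), and wild-type mouse 4 and knockout mouse 4 were near each other. The means were 4.22 ± 1.28 and 8.54 ± 2.34 FPKM (SD, n = 4), 2.02-fold, with a log2 difference of 0.87 ± 0.24 and a 95% interval of 0.36 to 1.37 (limma, adjusted p = 0.137). At reversal it was 1.35, 0.93, 0.98 and 0.55 FPKM in wild-type and 1.31, 1.09, 1.68 and 0.65 FPKM in knockout mice. Those values were interleaved, with a log2 difference of 0.15 ± 0.18 (limma, adjusted p = 0.865).

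Itga1 encodes the alpha chain of a collagen receptor that prefers basement membrane collagen. In the 8-week livers it was 2.12, 2.05, 2.70 and 2.22 FPKM in wild-type and 3.40, 2.81, 4.27 and 3.28 FPKM in knockout mice. All 4 knockout mice were above all 4 wild-type mice. The means were 2.27 ± 0.292 and 3.44 ± 0.606 FPKM (SD, n = 4), 1.51-fold, with a log2 difference of 0.44 ± 0.19 (limma, adjusted p = 0.326). At reversal wild-type mice had 1.19, 1.16, 1.32 and 1.24 FPKM and knockout mice 1.45, 1.14, 1.58 and 1.16 FPKM. Knockout mice 2 and 4 were at or below the lowest wild-type value, and the log2 difference was 0.06 ± 0.12 (limma, adjusted p = 0.929).

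Itga8, the alpha chain of a receptor for RGD ligands such as nephronectin, carried by mesenchymal cells, was the least abundant tested member at reversal. At 8 weeks it was 1.17, 1.20, 1.33 and 0.959 FPKM in wild-type and 2.21, 0.869, 2.54 and 1.38 FPKM in knockout mice. Knockout mice 1 and 3 were high and knockout mouse 2 was the lowest of all 8, and the log2 difference was 0.30 ± 0.21 (limma, adjusted p = 0.491). At reversal the range was 0.30 to 0.80 FPKM in wild-type and 0.49 to 0.65 FPKM in knockout mice, with a log2 difference of 0.07 ± 0.13 (limma, adjusted p = 0.919).

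Itgav is the alpha chain of the RGD-binding integrins that release active TGF-beta. In the 8-week livers it was 4.04, 2.82, 4.64 and 11.2 FPKM in wild-type and 11.5, 5.80, 12.6 and 10.1 FPKM in knockout mice. Wild-type mouse 4 stood with the knockout mice and knockout mouse 2 nearer to the wild-type mice. The means were 5.67 ± 3.75 and 10.01 ± 2.99 FPKM (SD, n = 4), 1.77-fold, with a log2 difference of 0.82 ± 0.33 and a 95% interval of 0.10 to 1.54 (limma, adjusted p = 0.291). At reversal it was 15.73, 10.33, 10.52 and 5.77 FPKM in wild-type and 10.74, 8.35, 16.62 and 8.14 FPKM in knockout mice. The highest wild-type and knockout mice were both among the libraries that stood apart. The means of 10.6 ± 4.07 and 10.96 ± 3.95 FPKM gave a log2 difference of 0.06 ± 0.29, with a 95% interval of -0.59 to 0.72 (limma, adjusted p = 0.973), which became -0.071 with median-ratio scaling and -0.051 with quantile normalization.

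Itgb5, a beta chain that pairs with Itgav alone, was next to Itgb1 in level and far above Itgb6 and Itgb8. In the 8-week livers it was 38.9, 29.6, 48.2 and 48.2 FPKM in wild-type and 59.1, 53.7, 56.5 and 47.7 FPKM in knockout mice. Knockout mice 1, 2 and 3 were above all wild-type mice and knockout mouse 4 was not. The means were 41.2 ± 8.89 and 54.2 ± 4.90 FPKM (SD, n = 4), 1.32-fold, with a log2 difference of 0.41 ± 0.21 (limma, adjusted p = 0.393), and 0.16 without wild-type mice 1 and 2. At reversal it was 14.64, 12.88, 17.14 and 12.10 FPKM in wild-type and 17.58, 15.05, 21.61 and 16.41 FPKM in knockout mice. Knockout mice 1 and 3 exceeded all wild-type mice, and the log2 difference was 0.30 ± 0.17 (limma, adjusted p = 0.660).

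Itgb6 and Itgb8, the beta chains of the epithelial and the mainly mesenchymal and immune latent TGF-beta receptors, were under the abundance limit at 8 weeks and were not tested. Itgb6 was 0.0239, 0.0298, 0.113 and 1.04 FPKM in wild-type and 0.506, 0.233, 0.343 and 0.212 FPKM in knockout mice. Wild-type mouse 4 was the highest and wild-type mice 1, 2 and 3 were the lowest of the 8. Itgb8 was 0.108, 0.166, 0.211 and 0.142 FPKM in wild-type and 0.147, 0.110, 0.639 and 0.574 FPKM in knockout mice. Knockout mice 3 and 4 were high and the other 2 lay within the wild-type range.

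The same mice were high or low for many members. At 8 weeks knockout mouse 3 had the highest FPKM for 8 of 10 members and wild-type mouse 2 the lowest for 7 of 10. At reversal knockout mouse 3, a different animal, was highest for 6 of 8 and wild-type mouse 4 lowest for 4 of 8. Wild-type mouse 4 of the 8-week group decided the count of calls. Without it, 1465 of 11928 genes passed the adjusted threshold and 3 members did: Itga9 with a log2 difference of 1.02 (limma, adjusted p = 0.00768), Itgav with 1.16 (limma, adjusted p = 0.00453) and Itga5 with 0.77 (limma, adjusted p = 0.0318). With wild-type mice 1 and 2 left out in place of it, 2 genes and no member passed, the median gene differed by 0.04 and the members by a median of 0.32, 8 of 8 of them higher in the knockout. Their values were then 0.64 for Itga9, 0.36 for Itgav, 0.36 for Itga1, 0.32 for Itga5, 0.32 for Itga8, 0.25 for Itga6, 0.16 for Itgb5 and 0.07 for Itgb1.

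**Figure D2:**
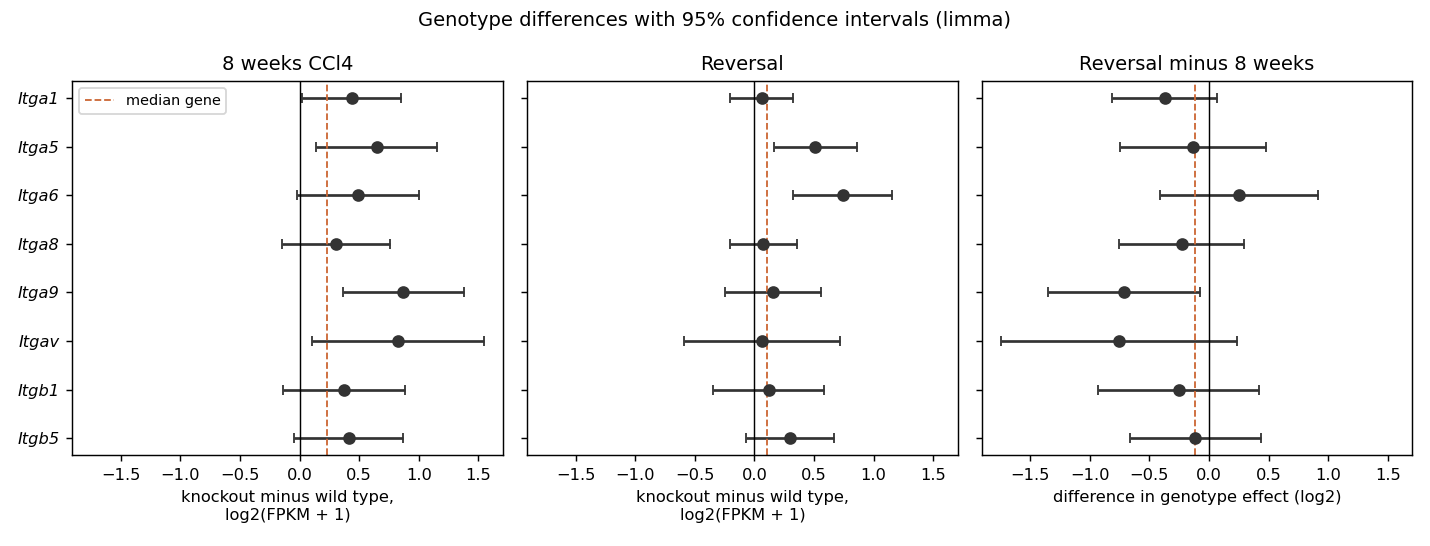
Difference between knockout and wild type (log2(FPKM + 1) scale, x axis) for each tested member (y axis) at 8 weeks, at reversal, and for the reversal difference minus the 8-week difference; points are limma estimates with 95% intervals and the dashed orange line is the median of all genes tested. At 8 weeks the intervals of Itga1, Itga5, Itga9 and Itgav do not include 0, and at reversal those of Itga5 and Itga6.

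Whether the genotype difference itself changed between stages was tested as an interaction over 16 libraries in 10647 genes. None of the 8 members passed, where 0.00% of all genes did. The reversal difference of Itga9 minus its 8-week difference was -0.71 ± 0.31 with a 95% interval of -1.35 to -0.07 (limma, adjusted p = 1.00). At an unadjusted p under 0.05 this was 1 of 8 members, against 2.00% of all genes lower and 0.761% higher. That count was 0 of 8 with a pseudocount of 0.1 and without the 5 mice that stood apart. In these settings 262 and 259 of 10647 genes had that p, against 294 as reported. The member count was also 0 when 1 mouse of 8 weeks was left out: wild-type 1 or 2, or knockout 1 or 3. The same held for wild-type mouse 1 or knockout mouse 4 of reversal. It was 1 or 2 without any other mouse, and 1 with median-ratio scaling and with quantile normalization. Itgav was at -0.76 ± 0.47 (-1.74 to 0.23) and Itga1 at -0.37 ± 0.21 (-0.82 to 0.07). Itga6 was the 1 member of 8 above 0, at 0.25 ± 0.32 (-0.41 to 0.92), where 30.8% of all genes were above 0. The median over all genes was -0.12 and that of the members -0.24. Leaving out the 5 mice that stood apart moved the median gene to 0.05, the members' median to -0.08, and gave 4 of 8 members above 0. In that setting 56.4% of all genes were above 0.

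**Figure D3:**
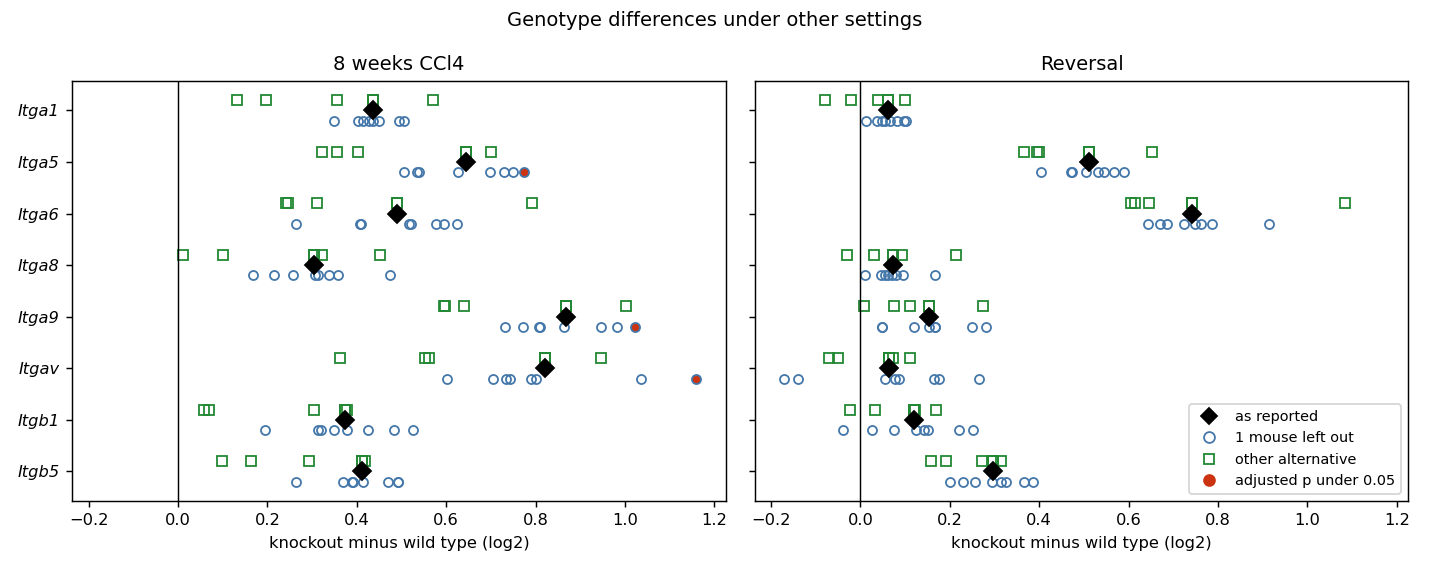
Genotype difference (log2(FPKM + 1) scale) of each tested member at 8 weeks and at reversal under every alternative run; black diamonds are the values as reported, circles leave 1 mouse out, squares are other alternatives, and red marks an adjusted p under 0.05. The red points are the 8-week Itga5, Itga9 and Itgav values without wild-type mouse 4, and at reversal Itga1, Itga8, Itgav and Itgb1 have points on both sides of 0.

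The order of levels was close to the same in both genotypes within a stage. Wild-type means at 8 weeks ran Itgb1, Itgb5, Itga5, Itgav, Itga9, Itga1, Itga8, Itga6, Itgb6 and Itgb8. The ranges over mice separated Itgb5 from Itga5, Itga9 from Itga1 and Itga1 from Itga8, while all other neighbours overlapped. In the knockout Itga6 came before Itga8 and Itgb8 before Itgb6, and the ranges separated Itgb1 from Itgb5, Itgb5 from Itga5, Itga9 from Itga1, and Itga8 from Itgb8. At reversal Itgav followed Itgb5 and came before Itga5 in both genotypes, and Itga9 stood just before Itga8, the last. There the ranges separated Itgb1 from Itgb5 and Itgav from Itga5 in both genotypes, Itga5 from Itga1 in the wild type and Itga6 from Itga1 in the knockout. Against all tested genes, the mean over 8 mice of Itgb1 exceeded 92.8% at 8 weeks and 83.3% at reversal, and that of Itga9 49.2% and 11.97%.

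The 2 stages were tabulated separately, so stage, table and library kit cannot be told apart and levels across them are set side by side without a test. The listed genes also differ, with 0 mitochondrial genes at 8 weeks and 13 at reversal, which made 23.5% to 38.1% of the FPKM there. The part of this in the ratios below was not tested. The wild-type mean at 8 weeks was 4.43 times the reversal mean for Itga9, 3.52 for Itga5, 2.90 for Itgb5, 2.35 for Itga8, 2.14 for Itgb1 and 1.85 for Itga1. The median of the same ratio over 10647 genes was 1.24. The ratio was 0.863 for Itga6 and 0.535 for Itgav, whose ranges overlapped between the tables, as the ranges of the other 6 did not in either genotype. In the knockout the ratio was 7.22 for Itga9, 0.913 for Itgav and 0.702 for Itga6, with a median gene of 1.34.

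Shares within a library do not depend on its total. Of the summed FPKM of the 6 alpha chains, Itgav made 17.1% to 33.4% in the 8 mice at 8 weeks and 46.4% to 68.2% in the 8 mice at reversal. Itga5 made 32.7% to 42.7% and 12.6% to 22.2%, and Itga9 16.9% to 23.1% and 3.84% to 6.81%. None of these 3 ranges overlapped between the tables. Between genotypes, the share of Itga6 at reversal was 7.38% ± 0.844 in the wild type (6.20% to 8.20%) and 13.7% ± 4.50 in the knockout (8.27% to 18.6%) (SD, n = 4), without overlap. It is drawn from the Itga6 values already described as separated. All other shares and ratios examined overlapped between genotypes at both stages, those of Itga6 to Itgb1 and of Itga6 to Itga5 among them. The ratio of Itgav to Itgb5 was 0.0953 to 0.232 at 8 weeks and 0.477 to 1.07 at reversal. Itgb1 made 53.5% to 64.4% and 58.0% to 71.3% of the beta-chain sum.

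**Figure D4:**
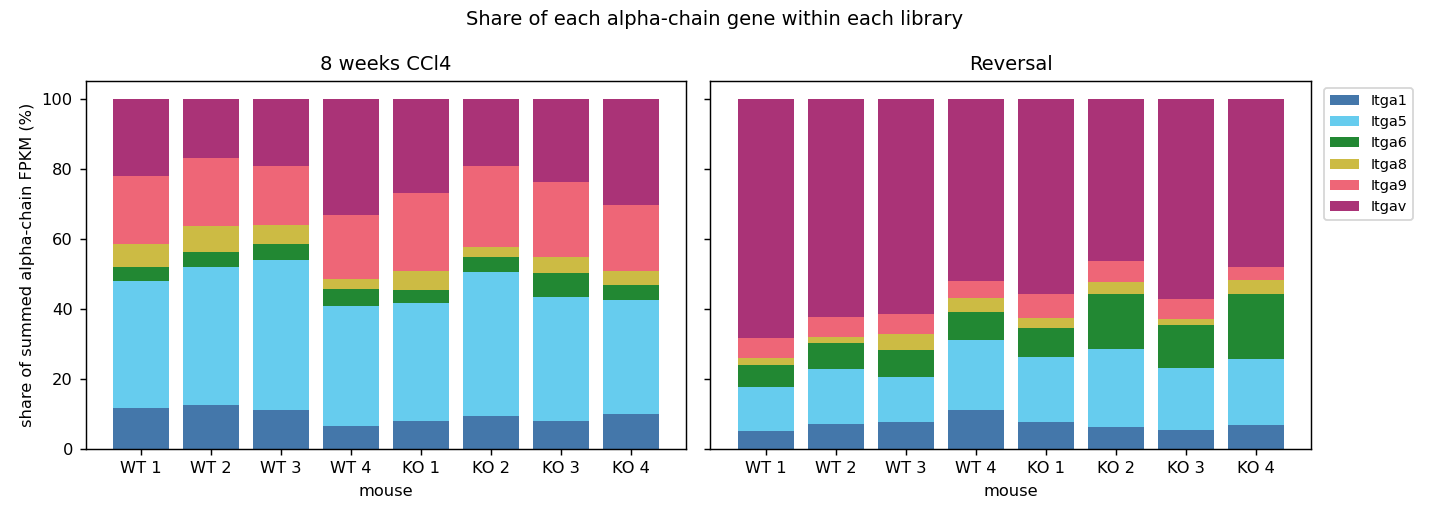
Share of each alpha chain (percent of the summed FPKM of the 6 alpha chains, stacked bars from 0) in each of the 16 libraries, grouped by genotype and stage. Itgav takes 17.1% to 33.4% at 8 weeks and 46.4% to 68.2% at reversal, and Itga9 16.9% to 23.1% and 3.84% to 6.81%.

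Markers of cell types that carry integrins also had higher means in the knockout, beside 82.6% of all genes higher by sign at 8 weeks and 70.7% at reversal. Those shares were 46.8% and 47.7% with median-ratio scaling, and the marker values were not rescaled. Vascular endothelial (8 of 8), bile duct (10 of 10) and lymphocyte markers (9 of 10) had higher knockout means at 8 weeks too. In bulk liver, more or fewer cells of a type and more or less RNA per cell cannot be told apart. The summed FPKM of 15 stellate cell and myofibroblast markers at 8 weeks was 274 to 435 in wild-type and 401 to 704 in knockout mice. In this list 15 of 15 means were higher in the knockout and 4 of 15 markers were without overlap, against 6.29% of all genes tested. Dcn, which overlapped, made 191 of the mean sum of 321 FPKM in the wild type. The sum of 10 sinusoidal endothelial markers was 72.5 to 118 against 121 to 182, without overlap, with 10 of 10 higher and 1 of 10 itself without overlap. That of 13 macrophage markers was 765 to 1186 against 1020 to 2024, with 11 of 13 higher and 2 of 13 without overlap. Lyz2 made 38.9% of the mean macrophage sum in the wild type and 44.2% in the knockout. The Kupffer cell markers Timd4 (3.82 and 1.93 FPKM) and Marco (124.7 and 90.6 FPKM) had the lower knockout mean. Both rest on wild-type mice 1 and 2, which stood apart. Timd4 was 6.46 and 6.02 FPKM in them and 1.14 and 1.65 FPKM in wild-type mice 3 and 4. Marco was 135 and 228 FPKM in them and 74.8 and 61.1 FPKM in wild-type mice 3 and 4. The Kupffer cell markers Clec4f, Vsig4 and Cd5l had the higher knockout mean. The sum of 13 hepatocyte markers was 47182 to 80000 against 33987 to 54075, with 12 of 13 lower. At reversal the stellate sum was 64.0 to 128 against 130 to 223 and the macrophage sum 459 to 679 against 824 to 1263, both without overlap. By single gene, 6 of 15 and 4 of 13 of these markers were without overlap, against 3.62% of all genes tested with the knockout above. Dcn, which overlapped, was 58.5 of the wild-type mean stellate sum of 95.1 FPKM. Lyz2 made 37.0% of the mean macrophage sum in the wild type and 49.6% in the knockout. By mean 12 of 13 macrophage markers were higher. The lower one, Clec4f, was 156.3 FPKM in wild-type mouse 1 and 37.8 FPKM in knockout mouse 3, both of which stood apart. The sinusoidal endothelial sum of 56.6 to 259 against 79.2 to 279 overlapped. No marker of these lists was at 0 in all libraries of a table. The part of these cell types in the integrin values was not tested.

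Other genes of the pathway were read from 7 lists, chosen like the members with earlier results of these data known. None of their genes passed the adjusted threshold at either stage. Their counts of higher means stand beside 82.6% of all genes at 8 weeks and 70.7% at reversal, which became 46.8% and 47.7% with median-ratio scaling and 49.5% and 47.8% with quantile normalization. Counts in brackets are those with median-ratio scaling and with quantile normalization, in that order. The genes named from each list were picked for the smallest p, so their separation between genotypes follows in part from that choice. Genes without overlap, with the knockout above, were counted in the order of the lists below, against the share of all genes tested. At 8 weeks they numbered 2, 10, 3, 1, 1, 2 and 2 of 10, 20, 13, 9, 8, 27 and 16, against 6.29%. At reversal they numbered 3, 2, 0, 1, 0, 2 and 1 of 10, 16, 10, 8, 7, 26 and 16, against 3.62%. Among other integrin subunits, mostly of leukocytes and platelets, 10 of 10 tested had the higher knockout mean at 8 weeks (8 and 7), with a median log2 difference of 0.65, and 9 of 10 at reversal (8 of 10 and 8 of 11) with 0.39. Itgal, a leukocyte alpha chain, was 4.47 ± 0.647 FPKM in wild-type and 7.95 ± 1.54 FPKM in knockout mice at 8 weeks, without overlap (SD, n = 4, adjusted p = 0.159). Itgb2, the beta chain of leukocyte integrins, was 7.11 ± 0.781 and 15.3 ± 5.50 FPKM at reversal, without overlap (limma, adjusted p = 0.423). Itgam, a myeloid alpha chain, was 4.25 ± 2.07 and 10.7 ± 6.53 FPKM at 8 weeks and 0.752 ± 0.158 and 1.86 ± 0.753 FPKM at reversal.

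Of the collagen and laminin ligands 20 of 20 tested were higher by mean at 8 weeks (16 of 19 and 15 of 20), with a median of 0.57, and 15 of 16 at reversal (12 and 11) with 0.41. Col3a1, a fibrillar collagen, was 23.6 ± 4.47 and 48.2 ± 14.2 FPKM at 8 weeks and 7.10 ± 2.46 and 18.4 ± 6.54 FPKM at reversal, without overlap at either stage. Col5a1 was 2.33 ± 0.256 and 5.26 ± 2.02 FPKM at 8 weeks, and Col5a2 0.858 ± 0.221 and 2.17 ± 0.560 FPKM at reversal, also without overlap. Of fibronectin, RGD and other matrix ligands, 12 of 13 were higher at 8 weeks (10 and 11) with a median of 0.57, and 10 of 10 at reversal (10 and 10) with 0.46. Tnc (tenascin-C), a ligand of the Itga9 receptor, was 0.995 ± 0.544 and 3.14 ± 1.77 FPKM at 8 weeks, without overlap (limma, adjusted p = 0.137). Emilin1, an elastic fibre glycoprotein bound by alpha 9 beta 1 and alpha 4 beta 1 integrins, was 11.1 ± 2.43 and 21.3 ± 4.39 FPKM at 8 weeks, without overlap, and 5.80 ± 0.664 and 9.08 ± 1.97 FPKM at reversal. Thbs1, the TGF-beta activator thrombospondin, was 0.492 ± 0.213 and 1.16 ± 0.358 FPKM at reversal.

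Of latent TGF-beta and its binding proteins, the cargo of Itgav receptors, 9 of 9 were higher by mean at 8 weeks (8 and 8) with a median of 0.53, and 8 of 8 at reversal (7 of 7 and 6 of 7) with 0.37. Tgfb1 was 11.9 ± 2.56 and 23.3 ± 6.29 FPKM at 8 weeks, with overlap, and 3.10 ± 0.578 and 7.00 ± 1.84 FPKM at reversal, without overlap (limma, adjusted p = 0.298). Nrros, which tethers latent TGF-beta on macrophages and microglia, was 6.14 ± 0.971 and 11.97 ± 3.23 FPKM at 8 weeks, and Tgfb3 0.325 ± 0.187 and 0.695 ± 0.264 FPKM at reversal. Of TGF-beta response genes 8 of 8 were higher at 8 weeks (8 and 6) with a median of 0.56, and 6 of 7 at reversal (5 and 5) with 0.30. Tgfbi was 24.9 ± 5.28 and 42.9 ± 10.97 FPKM at 8 weeks, without overlap, and 12.2 ± 4.45 and 23.4 ± 11.4 FPKM at reversal. Pmepa1, a feedback inhibitor of the pathway, was 1.65 ± 0.546 and 3.57 ± 1.52 FPKM at 8 weeks.

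Of adhesion adaptors and kinases inside the cell 26 of 27 were higher by mean at 8 weeks (18 and 21) with a median of 0.44, and 23 of 26 at reversal (15 and 16) with 0.16. Flna, the actin cross-linker filamin A, was 10.9 ± 4.81 and 23.5 ± 7.63 FPKM at 8 weeks and 5.45 ± 1.92 and 9.26 ± 1.42 FPKM at reversal, without overlap at the latter stage. Tns3, a tensin of adhesion sites, was 5.16 ± 1.90 and 11.1 ± 5.09 FPKM at 8 weeks, without overlap. Lims2 (PINCH-2), an adaptor of integrin-linked kinase, had the lower knockout mean at reversal, 45.7 ± 6.03 against 30.9 ± 7.70 FPKM (limma, adjusted p = 0.548). Of membrane partners and integrin regulators 14 of 16 were higher at 8 weeks (9 and 12) with a median of 0.36, and 12 of 16 at reversal (8 and 10) with 0.13. Cd9, a tetraspanin that associates with integrins, was 65.4 ± 24.5 and 120.1 ± 21.8 FPKM at 8 weeks, without overlap, and 19.4 ± 6.00 and 35.2 ± 15.9 FPKM at reversal. Dab2, an endocytic adaptor of beta chains, was 6.64 ± 0.812 and 14.7 ± 6.27 FPKM at 8 weeks, and Cd63 was 26.8 ± 12.2 and 81.9 ± 76.4 FPKM at reversal, both without overlap. The Cd63 mean of the knockout was 43.8 FPKM without mouse 3, which had 196.48 FPKM and is among the libraries that stood apart. Without wild-type mouse 4 at 8 weeks, 6 of 10, 11 of 20, 7 of 13, 4 of 9, 3 of 8, 7 of 27 and 5 of 16 genes of the 7 lists passed, all of them higher, in the order given here. In that setting 12.3% of all genes passed, 10.4% as higher in the knockout.

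**Figure D5:**
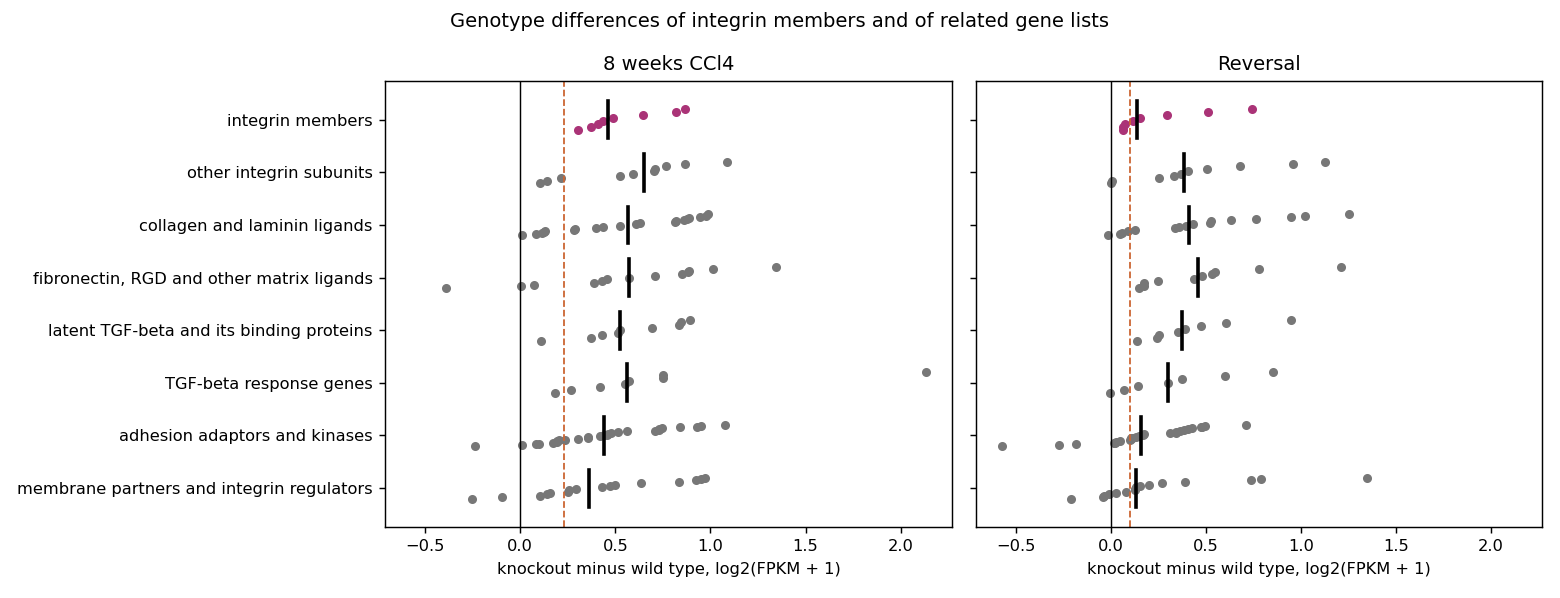
Genotype difference (log2(FPKM + 1) scale) of each tested gene in the integrin set and in 7 related lists, at 8 weeks and at reversal; points are genes, black bars list medians and the dashed line the median of all genes tested. At 8 weeks the list medians lie between 0.36 and 0.65 and the integrin set at 0.46, with the median gene at 0.23.

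The genes most like each member were found by correlating deviations from the genotype mean over the 8 libraries of each table and taking the lower r of both tables. This describes the libraries, which share depth and cell makeup, and carries no test. Itgb1 was closest to Nus1 (0.974), Kpna1 (0.971) and Uhmk1 (0.967), and Itga5 to Galnt2 (0.969), Aff1 (0.967) and Mllt6 (0.966). For Itgb5 they were Slc52a2 (0.940), Dbnl (0.913) and Ajuba (0.911), and for Itgav Sppl3 (0.925), Lama5 (0.888) and Ppic (0.886). Lama5 is a laminin alpha chain. Itga9 was closest to Slc43a2 (0.926), Tsc1 (0.920) and Il10rb (0.911), and Itga1 to Cd276 (0.912), Zc3h7b (0.890) and Stk4 (0.888). Itga6 was closest to Efcab2 (0.920), Cd34 (0.892), an endothelial and progenitor surface marker, and Iqsec1 (0.890). Itga8 had the weakest likeness, with Smoc2 (0.778), a matrix protein of fibroblasts, Smim8 (0.775) and Nme3 (0.775).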

How the data were processed

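Bulk RNA sequencing covered frozen liver of 16 mice, in 4 groups of 4 set by genotype and stage in the labels. The authors deposited 1 table of FPKM per stage; the unit is inferred from Cufflinks, since the headers name none, and TPM over a filtered gene set was not tested for the reversal table. HISAT and Cufflinks were run on mm10, per the submitters' processing notes; the sources used here give no versions, annotation, strand setting or gene filter. Per the labels' protocols, the 8-week libraries came from a NEBNext Ultra kit and the reversal libraries from that or a VAHTS Universal kit. Which kit made which reversal library is not given, so its part in the genotype differences at reversal was not tested. Read depth is unknown: recurring ratios of low genes, which whole reads would give, were found in 0 of 28 library pairs at 8 weeks, and the reversal values are rounded to 2 decimals. Summed FPKM ranged over libraries from 428142 to 478062 at 8 weeks and from 878889 to 959698 at reversal, so a change in abundant transcripts shifts every other gene.

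Within each table, genes averaging 0.5 FPKM or more across its 8 libraries were tested on log2(FPKM + 1), which understates the change of low genes, with limma 3.58.1 in R 4.3.3 (trended, robust empirical Bayes, statmod 1.5.0; 2-sided; Benjamini-Hochberg over all genes tested; threshold 0.05). The interaction was fitted over 16 libraries. The scripts were tested on simulated data. Gene symbols are those of the tables; 13713 of 13715 and 12917 of 12922 identifiers were found in the GENCODE annotation. Itgam was read by its annotated identifier, since 2 identifiers carry that symbol at reversal.

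The members and lists were chosen with earlier results of these data known. Named were all members, Mfap2, up to 2 genes of each list with the smallest p in each genotype comparison, and the 3 genes most like each member. A gene that this rule names at reversal is not reported here. Alternatives were median-ratio scaling, quantile normalization, a pseudocount of 0.1, no filter, a mean of at least 2 FPKM, a replicate block, each mouse left out, and the mice that stood apart left out together.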

Additional observations from a re-analysis of the deposited data

Results flagged for a closer look

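In 36 sets of 4 mice (a member in 1 group), the highest or lowest mouse was compared with the other 3 by its gap over the whole range, with a critical value of 0.829, which chance alone passes in about 1 of 20 sets. Itga6 in knockout mouse 3 at 8 weeks was 3.53 FPKM while the other 3 knockout mice had 1.27 to 1.66 FPKM, a gap just past the critical value. Itgb6 in wild-type mouse 4 at 8 weeks was 1.04 FPKM while the other 3 wild-type mice had 0.0239 to 0.113 FPKM. The bile duct marker Sox9 was 17.8 FPKM in that mouse and 1.28, 2.26 and 6.73 FPKM in wild-type mice 1 to 3. Every other bile duct marker of the list was highest in mouse 3 among the wild-type mice. Krt19 was 2.82 FPKM in mouse 4 and 1.49, 0.791 and 4.49 FPKM in mice 1 to 3. Epcam was 3.36 FPKM in mouse 4 and 7.72 FPKM in mouse 3, and Spp1 163 and 271 FPKM. The part of bile duct cells in the Itgb6 value was not tested.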

How the results depend on the processing

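Over 24 differences of members and 415 values under alternatives, 396 kept direction and side of the threshold, 16 reversed, 3 newly passed and 0 were lost, and 17 differences never reversed. At 8 weeks the number of genes called (1) was 0 after median-ratio scaling and with a replicate block, 3 with a pseudocount of 0.1, 2 without wild-type mice 1 and 2, and 1 to 1465 with 1 mouse left out (1465 without wild-type mouse 4, 32 without knockout mouse 2, 4 without wild-type mouse 3); members called ranged from 0 to 3. The 3 were Itga5 at 0.77, Itga9 at 1.02 and Itgav at 1.16, without wild-type mouse 4. At reversal 5 members were higher with median-ratio scaling, 5 with quantile normalization, and 5 of the 5 with a mean of at least 2 FPKM, a smaller set by construction; with 1 mouse left out it was 7 to 8. Reversed there were Itga1 (-0.021 after median-ratio scaling, -0.080 after quantile normalization), Itgav (-0.071 and -0.051; -0.17 to 0.26 with 1 mouse left out), Itgb1 (-0.023 after median-ratio scaling; -0.040 to 0.25) and Itga8 (-0.031 after quantile normalization). In the interaction, members higher (1) were 3 after median-ratio scaling, 0 of 4 with a mean of at least 2 FPKM, 4 without the 5 mice that stood apart, and 1 to 2 with 1 mouse left out; genes called (0) were 1 without those 5 mice and 0 to 1 with 1 left out. Itga5 was 0.041 after median-ratio scaling, 0.077 without the 5 mice and -0.26 to 0.0042 with 1 left out; Itgb5 was 0.061, 0.11 and -0.21 to 0.032, and Itgb1 0.10 without the 5 mice. The exact p of Mfap2 was 0.0286 to 0.0571 with 1 mouse left out. The cause of these shifts was not tested.

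Mouse numbers did not pair the libraries: same-numbered mice had correlations of -0.44, 0.37, -0.06 and -0.22 at 8 weeks and -0.66, 0.007, -0.14 and 0.37 at reversal, and the replicate block called 0 members. Depth is unknown, so no limit from counting can be given for Itgb6 and Itgb8.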

Other observations

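Itga3, the alpha chain of another laminin receptor, was 1.35, 1.76, 5.87 and 27.5 FPKM in wild-type mice 1 to 4 and 16.6, 8.18, 10.9 and 6.32 FPKM in knockout mice 1 to 4 at 8 weeks. It ranked the 8 mice in the same order as Itgb6 did, as did 23 of 11928 tested genes (0.193%). Itga3 was chosen after its values were seen, and the pattern carries no test.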
